A study of Mus musculus with 16 samples.

Results

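Memory phenotype CD8 T cells were compared after 4 h with phorbol myristate acetate (PMA) and ionomycin and after 4 h in medium. The comparison rests on 8 of the study's 16 arrays, chosen by their titles: 4 of stimulated and 4 of resting memory phenotype cells. The cells came from female C57BL/6N mice aged 7 weeks and were sorted as positive for CD8 and Thy1.2 with high surface CD44. Resting cells were kept in serum-containing Iscove's medium, and stimulated cells in the same medium to which 10 ng/mL PMA and 500 ng/mL ionomycin were added. The other 8 arrays hold CD44-low (naive) CD8 T cells of the same strain, sex and age, 4 at rest and 4 stimulated in the same way. They are used here where the memory response is set against the naive one. The design text states that sort and culture were repeated on 4 independent occasions; the sources used here do not say whether animals were pooled. The memory fraction is defined by CD44 alone, and the labels give no antigen history of the cells.

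PMA mimics diacylglycerol and activates protein kinase C, and ionomycin carries calcium into the cell and so activates the phosphatase calcineurin. Together they drive the Ras-MAP kinase, NF-kappaB and NFAT pathways below the T cell receptor, without a ligand for the receptor itself. Memory CD8 T cells are known for rapid cytokine release on restimulation, for dependence on interleukin 7 and interleukin 15 at rest, and for a quiescent state that ends when the cell enlarges before division.

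Levels are log2 signal relative to the 75th percentile of the array, so that 0 stands for that percentile and 1 unit for a doubling; levels of different probes are not compared. That percentile lay at 491 to 664 intensity units on the 8 memory arrays, and the share of spots well above background was 63.9% to 66.5% at rest and 59.3% to 61.4% after stimulation. Pearson's r across genes between arrays of a group was 0.9826 to 0.9937 at rest and 0.9887 to 0.9937 after stimulation, where genes are not independent replicates. Each group was hybridised on a slide of its own, scanned on its own, so that slide and stimulation cannot be told apart in any comparison here. In bulk RNA, fewer cells of a type and less RNA per cell cannot be told apart either.

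Of the genes of the sort, Cd44 and Thy1 rose with stimulation and Cd8a fell. Cd44, the hyaluronan receptor used to define the fraction (chromosome 2, 102663537 to 102663596, as positions of array probes on mouse build mm7 throughout unless another build is named), read 3.61, 3.37, 3.5 and 3.46 on the resting arrays and 6.15, 5.76, 5.53 and 6.01 on the stimulated arrays. At rest it stood at 3.49 ± 0.099 (SD, n = 4) against -0.56 ± 0.13 in naive cells. The fractions were sorted on surface CD44 and lay on different slides. In the memory fraction, Cd44 rose by 2.38 ± 0.2 (SE) with stimulation (limma, adjusted p = 3.1e-08). Of 9 tested genes of T and CD8 cells 2 rose and 5 fell, and their summed linear signal, in multiples of the 75th percentile, was 394 to 451 at rest and 369 to 453 after stimulation. Cd8a, which encodes the alpha chain of CD8, fell by 1.33 ± 0.21. Cd8b1, which encodes the beta chain, changed by -0.23 ± 0.12 without passing (adjusted p = 0.105). It passed as a fall with quantile scaling, in the authors' deposited values and with the replicate number as a block. Its probe with the largest spread also passed as a fall (-0.97).

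Markers of other cells moved as well. Of 8 tested neutrophil genes 7 fell, and their summed signal went from 5.65 to 13.7 at rest to 0.53 to 2.31 after stimulation. S100a8, a calcium-binding protein of neutrophils, read -1.21, 0.18, -0.09 and 0.55 on the resting arrays and -4.33, -3.19, -2.53 and -5.26 on the stimulated arrays. The B cell sum went from 31 to 36.7 at rest to 14.6 to 18.6 after stimulation, with 5 of 7 genes down, and the monocyte or macrophage sum from 8.83 to 12.9 to 3.29 to 5.69, with 5 of 8 down. The B cell sum was mostly Ighm, the immunoglobulin mu chain, which stood at 5.0 ± 0.12 at rest and 4.01 ± 0.16 after stimulation; Cd79b, a chain of the B cell receptor complex and a defining gene, stood at 0.24 ± 0.16 and -3.68 ± 0.51. Of 3 tested gamma delta T cell genes 2 rose and 1 fell, and their sum went from 14.9 to 20.2 to 1.04 to 1.89. Nearly all of it was Cd163l1, a scavenger receptor of gamma delta T cells, which stood at 4.11 ± 0.18 and 0.18 ± 0.49. NK or NKT cell genes summed to 8.91 to 9.66 at rest and 7.02 to 10.2 after stimulation (0 rose and 4 fell of 8), CD4 or regulatory T cell genes to 6.71 to 7.24 and 5.31 to 7.24 (2 rose and 2 fell of 5), and genes of dendritic cells and MHC class II to 5.76 to 10.5 and 5.54 to 8.05 (1 rose and 1 fell of 8). Erythrocyte genes summed to 0.294 to 0.446 and 0.213 to 0.24 (0 rose and 1 fell of 3) and platelet genes to 0.194 to 0.311 and 0.128 to 0.229 (1 rose and 2 fell of 4). The part of these cells in the results below was not tested.

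Most genes tested differed between the stimulated and the resting arrays. Of 18402 genes tested, 5767 (31.3%) rose and 7194 (39.1%) fell at an adjusted p of at most 0.05, which is the meaning of rose and fell throughout; the test is limma's, two-sided, with Benjamini-Hochberg adjustment. A change of at least 2-fold was seen in 3464 rising genes (18.8%) and 4515 falling genes (24.5%; 2250 genes with normexp background correction), and a change of at least 16-fold in 164 and 152. All 4 stimulated arrays lay above all 4 resting arrays for 5326 genes (28.9%) and below them for 6583 (35.8%). These shares are the background for every count of genes below.

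Rises were more frequent among strong signals and falls among weak ones. Of 1393 genes with a mean level over 4, 60.3% rose and 15.4% fell, with a median change of 0.53. Of 4424 genes under -4, 14% rose and 43.9% fell, with a median of -0.54. The median over all genes was -0.16, and it was 0.01 when arrays were centred on the median of tested probes, so a small change of a list is read against that shift. Genes above background on 3 or 4 stimulated arrays and on no resting array numbered 191, against 988 in the reverse case. A set added after the data were seen, 416 tested sensory receptor genes at a median resting level of -4.49, had a median change of -0.47, with 50 risen and 175 fallen. In naive cells the median change was 0.57 for these receptor genes and 0.17 for the genes under -4. Weak signals thus moved in opposite directions in the 2 fractions, and the part of the slides in this was not tested. The plot of change by level shows how the median change moved with the level.

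**Figure D1:**
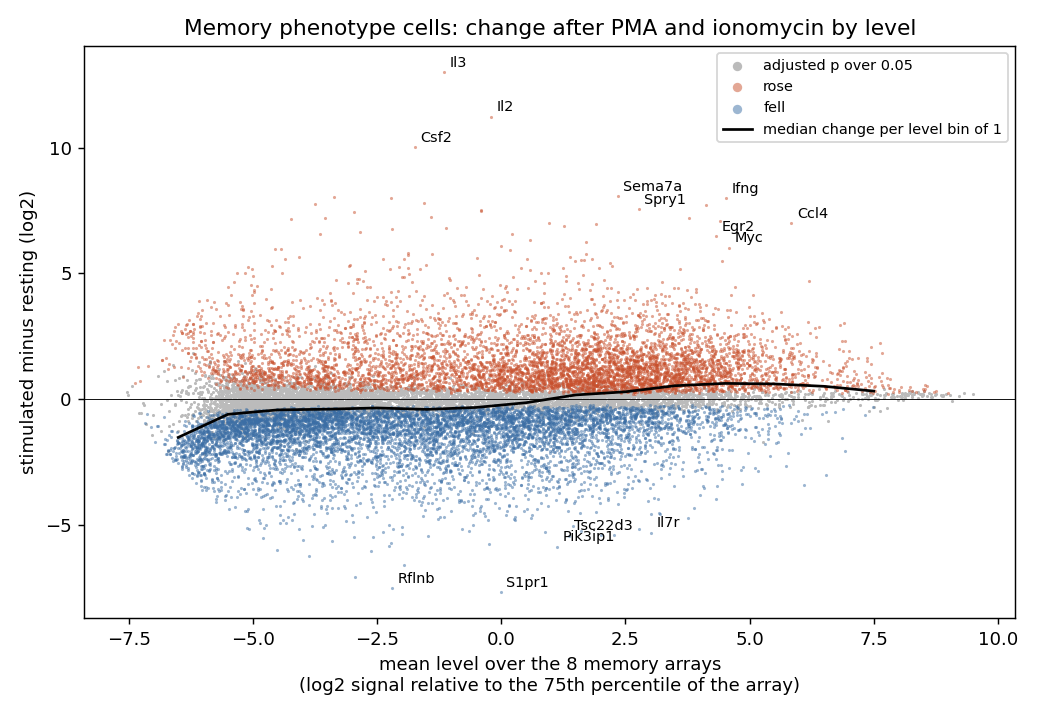
Each point is 1 of 18402 genes, with its mean level over the 8 memory arrays on the horizontal axis (log2, 0 being the 75th percentile of an array) and stimulated minus resting on the vertical axis (log2); red genes rose, blue fell, grey did not pass. The black line is the median change in level bins 1 unit wide that hold at least 20 genes; it is negative at low levels and positive at high ones, and Il3, Il2 and Csf2 stand above the other genes.

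Several of the largest rises measured in both groups were of genes for secreted or surface proteins. Ifng, which encodes interferon gamma (chromosome 10, 117841087 to 117841146), read 0.28, 0.58, 0.67 and 0.58 on the resting arrays and 8.42, 8.44, 8.66 and 8.57 on the stimulated arrays. The groups were far apart, at a change of 7.99 ± 0.17 (SE; adjusted p = 3.22e-14), which is 255-fold. Sema7a, a membrane-anchored semaphorin (chromosome 9, 57990527 to 57990586), read -1.68, -1.72, -1.62 and -1.7 on the resting arrays and 6.22, 6.33, 6.58 and 6.4 on the stimulated arrays, a rise of 8.07 ± 0.11. Xcl1, the chemokine that draws cross-presenting dendritic cells (chromosome 1, 164899708 to 164899767), rose by 7.72 ± 0.16, and the inflammatory chemokines Ccl3 and Ccl4 by 7.09 ± 0.14 and 6.99 ± 0.16.

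Members of the TNF and immunoglobulin families were among the 12 as well, beside an inhibitor, a repressor, a transporter and an enzyme. Tnfsf11, which encodes RANKL (chromosome 14, 72958504 to 72958563), read -3.22, -4.37, -4.35 and -4.7 on the resting arrays and 3.17, 3.48, 3.33 and 3.4 on the stimulated arrays, with no overlap. It rose by 7.51 ± 0.24 (adjusted p = 1.36e-12), and Tnfsf14, which encodes LIGHT, by 7.21 ± 0.18. Cd160, a receptor for the same HVEM protein that binds LIGHT (chromosome 3, 96679707 to 96682710), rose by 7.24 ± 0.26 from a level close to background (-5.02 ± 0.38). Spry1, an inhibitor of Ras-MAP kinase signalling, rose by 7.56 ± 0.16, and Zbtb32, a zinc finger repressor of lymphocyte activation, by 6.99 ± 0.24. Mfsd2a, a transporter of lysophosphatidylcholine lipids, read -1.55, -1.87, -1.68 and -1.18 on the resting arrays and 5.02, 5.35, 5.66 and 5.55 on the stimulated arrays, a rise of 6.97 ± 0.18. Chac1, an enzyme that degrades glutathione and a target of the stress factor ATF4 (chromosome 2, 119095103 to 119095162), read -3.97, -3.92, -4.7 and -3.96 on the resting arrays and 1.78, 3.88, 4.12 and 3.54 on the stimulated arrays. Its stimulated arrays spread more than those of the other rises named so far, and the change was 7.47 ± 0.62 (adjusted p = 3.61e-08).

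Among genes measured in both groups, the fall of S1pr1 was the largest. S1pr1, the receptor by which lymphocytes leave lymphoid tissue along sphingosine 1-phosphate (chromosome 3, 115486015 to 115486074), read 3.83, 4.01, 3.85 and 3.64 on the resting arrays and -4.24, -3.9, -3.88 and -3.4 on the stimulated arrays. It fell by 7.68 ± 0.26 (adjusted p = 2.02e-12), or 206-fold. Il7r, the alpha chain of the receptor for the survival cytokine interleukin 7 (chromosome 15, 9573818 to 9573877), read 5.37, 5.95, 5.81 and 5.54 on the resting arrays and 0.03, 0.22, 0.24 and 0.94 on the stimulated arrays, a fall of 5.31 ± 0.24. All 3 Il7r probes tested fell. Pik3ip1, an inhibitor of PI3 kinase, fell by 5.87 ± 0.17, Tsc22d3, which encodes the glucocorticoid-induced leucine zipper, by 5.44 ± 0.17, and Txnip, which restrains glucose uptake, by 5.39 ± 0.17. Txnip read 4.62, 5.14, 5.08 and 5.05 on the resting arrays and -0.59, -0.42, -0.27 and -0.39 on the stimulated arrays, and the groups did not overlap.

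Other falls were of channel, enzyme and unnamed genes. Kcnj8, a subunit of ATP-sensitive potassium channels (chromosome 6, 142653175 to 142653234), fell by 5.78 ± 0.34, Dapk2, a calcium and calmodulin dependent death-associated kinase, by 5.38 ± 0.31, and Prss12, a secreted serine protease, by 5.28 ± 0.27. Siae, a sialic acid esterase, fell by 5.28 ± 0.19 and Fam78a by 5.42 ± 0.14. Probes for AK078238 (chromosome 2, 174454774 to 174454833) and Gm11346 (chromosome 13, 23964219 to 23964278) fell by 5.83 ± 0.21 and 5.44 ± 0.19. For these 24 genes every stimulated array lay on one side of every resting array, as the plot of the largest changes shows. They were chosen as the largest changes with all same-numbered differences of one sign. The choice thus nearly fixed this separation in advance.

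**Figure D2:**
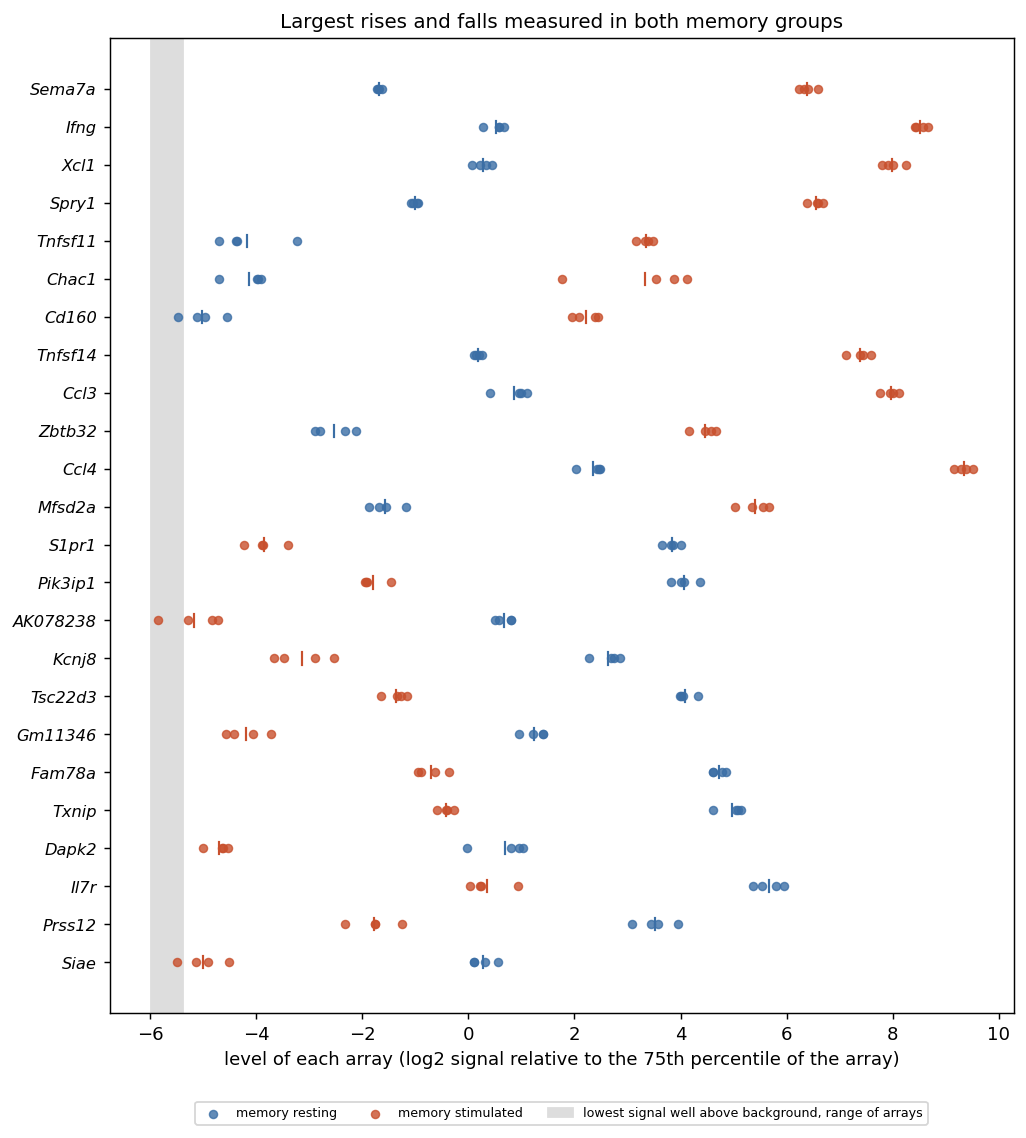
Each point is 1 array's level (log2 relative to its 75th percentile) for the 12 largest rises and 12 largest falls among genes above background on at least 3 arrays of both memory groups; blue is resting, red is stimulated, and ticks are group means of 4 arrays. The grey band spans the lowest signals well above background over the arrays, and for every gene shown the blue and red points are separate. Genes were eligible only if all same-numbered differences had one sign.

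Some genes were above background in 1 state only, so that their change is a lower bound, the bright group's mean against the lowest measurable signal of the dim arrays. Il3, the cytokine of mast cell and basophil growth (chromosome 11, 54222252 to 54222311), read -8.1, -7.99, -7.97 and -6.55 on the resting arrays and 5.33, 5.71, 5.79 and 4.61 on the stimulated arrays. It was not well above background on any resting array and at least 2259-fold higher after stimulation. The limma test was not of this bound but of the change of 13.01 ± 0.55 (adjusted p = 2.04e-11). That change rests on resting signals below background. Csf2, which encodes GM-CSF (chromosome 11, 54204021 to 54204048), was at least 528-fold higher and the chemokine Ccl1 at least 86.6-fold. The Wnt receptor Fzd9 was at least 92.2-fold higher and Il17a at least 60.7-fold. Shisa3, an antagonist of Wnt and FGF receptors, and the connexin gene Gjc1 were at least 55.3-fold and 42.6-fold higher, and the transcript BU531328 (chromosome 14, 42426701 to 42426760) at least 190-fold.

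In the other direction Rflnb, which encodes a filamin-binding protein (chromosome 11, 76101734 to 76101793), read 1.5, 1.85, 1.95 and 1.0 on the resting arrays and -5.96, -5.77, -5.45 and -6.66 on the stimulated arrays. No stimulated array was well above background, and the fall was at least 135-fold. The limma test was of the change of -7.54 ± 0.32 (adjusted p = 2.44e-11), which rests on stimulated signals below background. The ADP-ribosyltransferase family gene Art4 was at least 69.2-fold lower and Rapgef4, a cyclic AMP activated exchange factor for Rap proteins, at least 22.1-fold. AK031552, D3Ertd751e, Apol7a and Dnajc28 were at least 27.3-, 19.8-, 19.1- and 18.8-fold lower. Mr1, which presents vitamin B metabolites to mucosal-associated invariant T cells, was at least 16.6-fold lower.

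The remaining results are given by gene lists, each counted beside the 31.3% of all genes that rose and the 39.1% that fell. Beyond the members with the largest changes, genes were named for their known role with their values in view. List medians moved with the scaling, by -0.63 to 0.26 with quantile scaling and by -1.06 to 0.17 in the authors' deposited values, and in both the medians of 4 lists turned from above 0 to below it. The plot of list members shows all of them.

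**Figure D3:**
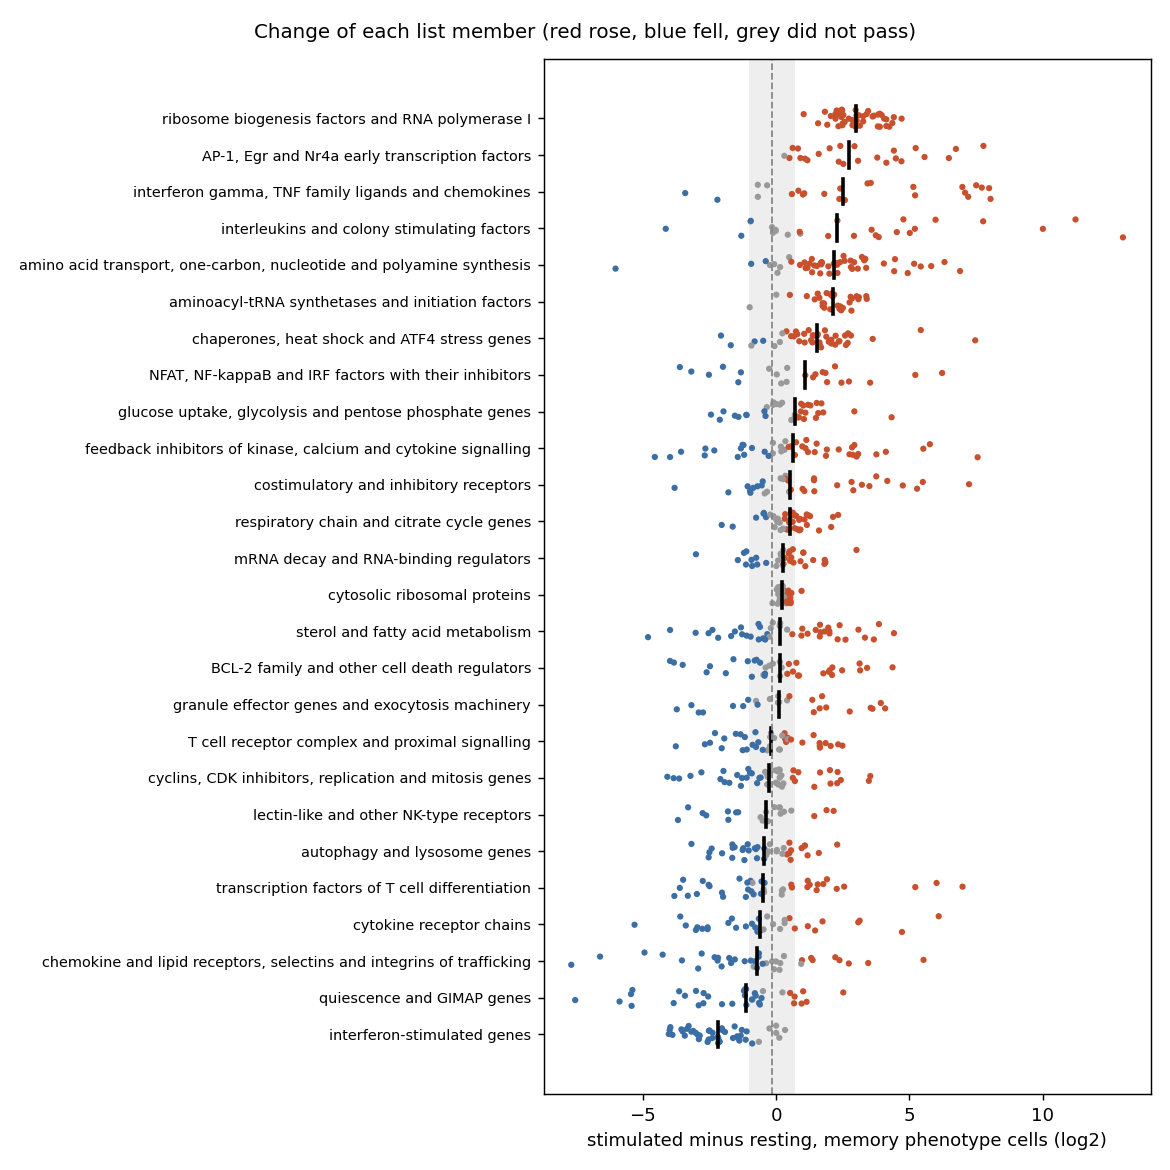
Each point is 1 tested member of 1 of 26 gene lists, placed by its change in memory phenotype cells (stimulated minus resting, log2); red rose, blue fell and grey did not pass. Black bars are list medians, the dashed line is the median of all genes (-0.16) and the shaded band runs from the lower to the upper quartile of all genes; ribosome biogenesis lies at the top with a median of 2.99 and interferon-stimulated genes at the bottom with -2.18.

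Early transcription factors rose almost without exception. The AP-1, Egr and Nr4a list had a median change of 2.73, with 23 of its 24 tested members up and 0 down. Egr2, a zinc finger factor induced by calcium and MAP kinase signals (chromosome 10, 67145376 to 67145435), read 0.82, 1.32, 1.06 and 1.16 on the resting arrays and 7.1, 7.69, 7.76 and 7.75 on the stimulated arrays. It rose by 6.48 ± 0.17, against 4.26 ± 0.17 in naive cells, and the 2 responses differed by 2.22 ± 0.25 (adjusted p = 1.92e-05). At rest it stood at 1.09 ± 0.21 in memory and 2.89 ± 0.078 in naive cells, and after stimulation at 7.57 ± 0.32 and 7.16 ± 0.32. Egr4 rose by 6.75 ± 0.19, the stress factor Atf3 by 5.57 ± 0.18, the orphan nuclear receptor genes Nr4a1 and Nr4a3 by 4.7 ± 0.12 and 5.24 ± 0.39, and Egr1 by 2.94 ± 0.17. Fosl1, an AP-1 subunit, was above background on 2 of 4 resting arrays and rose by 7.78 ± 0.31. Jun, the AP-1 partner of Fos, rose by 0.5 ± 0.18 (adjusted p = 0.0216), a call that ended without memory resting replicate 1 or 2 or memory stimulated replicate 2 or 3 (0.44 to 0.47). Jund did not pass (0.31 ± 0.2, adjusted p = 0.183). It passed as a rise without memory stimulated replicate 1 (0.49) and with the replicate number as a block (0.31). In the authors' deposited values it was lower (-0.44, adjusted p = 0.0184). The response of 14 of the 24 was above the naive one and that of none was below it, where 5.9% of all genes were above and 14.1% below.

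Serum response factor binds CArG boxes and is known to drive Egr genes, which is why an Egr2 promoter is shown. The 250 bases before a RefSeq start of Egr2 (GRCm38.p6, chr10:67537619-67537868, plus strand) hold one such box, in capitals, 72 bases before that start; the window of another Egr2 start holds none.
Egr2: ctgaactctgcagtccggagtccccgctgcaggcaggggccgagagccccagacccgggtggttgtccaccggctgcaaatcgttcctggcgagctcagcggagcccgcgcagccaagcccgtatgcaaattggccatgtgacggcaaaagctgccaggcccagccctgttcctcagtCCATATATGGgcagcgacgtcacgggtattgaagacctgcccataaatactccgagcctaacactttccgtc
A CArG box was found for 1 of the 18 list members with a RefSeq promoter (5.56%) and for 1.62% of 27025 genes. Both strands of the same 250 bases were searched, and here and below a gene counts once, with a match in any of its RefSeq promoters. A match is a description of the letters and not a site of binding.

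Of 23 NFAT, NF-kappaB and IRF factors and their inhibitors 12 rose and 6 fell, with a median of 1.10 (0.47 with quantile scaling, where 12 rose and 7 fell). Irf4, the factor that scales with the strength of T cell activation (chromosome 13, 30132137 to 30132196), read -1.61, -1.56, -1.38 and -1.05 on the resting arrays and 4.82, 4.81, 4.88 and 4.8 on the stimulated arrays, a rise of 6.23 ± 0.15. Nfkbid, an atypical IkappaB protein, rose by 5.22 ± 0.25, and Irf8 by 3.53 ± 0.19. The NF-kappaB subunit genes Rel and Nfkb1 rose by 2.21 ± 0.26 and 2.45 ± 0.15, as did the inhibitor genes Nfkbia (1.91 ± 0.13) and Tnfaip3 (1.48 ± 0.13). Rel and Irf8 rose by 5.34 ± 0.26 and 6.21 ± 0.19 in naive cells, and memory minus naive response was -3.13 ± 0.37 and -2.68 ± 0.27 (adjusted p = 2.91e-05 and 6.01e-06). Irf8 stood at 1.37 ± 0.22 in resting memory and -1.21 ± 0.17 in resting naive cells. After stimulation it stood at 4.9 ± 0.37 and 5.0 ± 0.29, so that its fractions differed mainly at rest. The falls were led by Bcl3 (-3.61 ± 0.18) and Irf1 (-3.18 ± 0.19). Nfatc1 and Nfatc2, the NFAT genes of peripheral T cells, did not pass, at 0.39 ± 0.18 (adjusted p = 0.0613) and -0.26 ± 0.11 (adjusted p = 0.0546). Probes of these genes disagreed: those with the largest spread passed, at 2.09 for Nfatc1 and -3.02 for Nfatc2.

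Feedback inhibitors of signalling split, with 24 of 44 risen and 14 fallen and a median of 0.63 (0.38 in the authors' deposited values). Rgs16 and Rgs1, regulators of G protein signalling, rose by 5.77 ± 0.2 and 4.12 ± 0.14. The MAP kinase phosphatase genes Dusp4, Dusp2 and Dusp6 rose by 5.52 ± 0.17, 3.02 ± 0.12 and 2.75 ± 0.14, while Dusp1 did not pass (0.18 ± 0.16, adjusted p = 0.329). Of the SOCS family, Cish rose by 3.76 ± 0.21 and Socs1 by 1.45 ± 0.26, and Socs3 fell by 1.32 ± 0.22. The falls were led by Sla2, an adaptor that lowers antigen receptor signalling (-4.55 ± 0.23), and Dgka, the kinase that removes diacylglycerol (-3.98 ± 0.19).

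The T cell receptor complex and its proximal signalling genes rose in 14 and fell in 16 of 39 cases, with a median of -0.19; with quantile scaling and in the authors' deposited values 9 rose and 21 fell (medians -0.545 and -0.536). Orai1, the pore of the calcium channel opened by store depletion, rose by 2.49 ± 0.16 and the kinase gene Zap70 by 2.33 ± 0.14. The CD3 chains Cd3g, Cd3e and Cd3d fell by 1.25 ± 0.19, 0.78 ± 0.23 and 0.75 ± 0.14, and the kinase gene Lck by 1.1 ± 0.11. Gab3, an adaptor, fell by 3.76 ± 0.23, Rasgrp2, an exchange factor for Rap1, by 2.67 ± 0.22, and Sit1, an inhibitory adaptor, by 2.48 ± 0.24. Cd5, a damping receptor, rose by 1.65 ± 0.21.

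Interferon gamma, TNF family ligands and chemokines rose in 19 of 24 cases and fell in 2, with a median of 2.49. Tnf, the cytokine tumour necrosis factor, rose by 5.21 ± 0.25, Tnfsf9, the ligand of 4-1BB, by 2.58 ± 0.29, and Fasl, the death ligand, by 1.81 ± 0.24. Cd40lg, the ligand of CD40 better known from CD4 cells, was not well above background on any resting array and was at least 5.14-fold higher after stimulation. Ccl5, a chemokine that memory CD8 T cells hold at rest, stood at 7.35 ± 0.098 and rose by 0.84 ± 0.15, against 1.82 ± 0.15 in naive cells (difference -0.98 ± 0.21, adjusted p = 0.00438). Ltb, which encodes lymphotoxin beta, fell by 3.41 ± 0.15, and Ccl6, a chemokine of myeloid cells, by 2.2 ± 0.22, beside the lower neutrophil and monocyte sums.

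Interleukins and colony stimulating factors rose in 16 of 27 cases and fell in 3, with a median of 2.30. That median was 0.93 with normexp background correction and 1.23 in the authors' deposited values, and of the 14 genes above background on all memory arrays 5 rose and 2 fell (median 0.21). Il2, whose product drives T cell expansion (chromosome 3, 36936354 to 36936512), read -5.79, -5.99, -5.96 and -5.51 on the resting arrays and 5.39, 5.67, 5.72 and 4.9 on the stimulated arrays. Above background on 2 of 4 resting arrays, it rose by 11.23 ± 0.21 (adjusted p = 1.09e-14), and both of its probes rose. Areg, which encodes the EGF receptor ligand amphiregulin, was at least 20.3-fold higher and the regulatory cytokine Il10 rose by 4.78 ± 0.32. Tgfb1 rose by 1.95 ± 0.14. Il16 fell by 4.14 ± 0.1 and Ebi3, a subunit of interleukin 27 and interleukin 35, by 1.3 ± 0.25.

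Cytokines best known from helper T cell subsets were among the rises. Il17a, the cytokine of type 17 cells (chromosome 1, 20929491 to 20929550), read -7.69, -7.58, -7.6 and -7.62 on the resting arrays and 0.25, 0.86, 1.04 and -1.57 on the stimulated arrays. Replicate 4 was the lowest of the stimulated arrays, as it was for Il3 and Il2, and all 4 lay above the resting ones. Il17f (chromosome 1, 20973592 to 20974937) read -4.52, -4.43, -4.52 and -4.48 on the resting arrays and 1.67, 0.87, 1.37 and -1.04 on the stimulated arrays, a rise of 5.21 ± 0.42, with the same array lowest. Il21 and Il22, cytokines of helper cells, were at least 8.73-fold and 8.03-fold higher. Il21 read -7.72, -7.62, -7.62 and -7.71 on the resting arrays and -2.52, -2.67, -2.72 and -2.7 on the stimulated arrays, and it was not well above background on any of the 8 naive arrays. Il4, the type 2 cytokine, rose by 3.74 ± 0.33, and Il9 and Il31 were at least 3.8-fold and 3.57-fold higher. Il13 did not pass (0.44 ± 0.38, adjusted p = 0.308). Il5 read -1.61, -6.93, -7.27 and -7.91 on the resting arrays and -3.46, -2.72, -2.62 and -3.23 on the stimulated arrays; resting replicate 1 lay above the other resting arrays and above every stimulated array, and the rise of 2.92 ± 1.09 (adjusted p = 0.0266) lost its call in 7 alternatives: with normexp background correction (0.71), in a fit of the 8 memory arrays alone, and without memory resting replicate 2, 3 or 4 or memory stimulated replicate 2 or 3 (2.26 to 2.83). The gamma delta T cell marker Cd163l1 fell, and another marker of that list that type 17 cells share, Il23r, was at least 2.62-fold higher from below background. Cd4 did not pass (-0.35 ± 0.17, adjusted p = 0.0786), though it passed as a fall in the fit of the 8 memory arrays alone and without naive resting replicate 1. The part of other T cells in the cytokine rises was not tested.

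**Figure D4:**
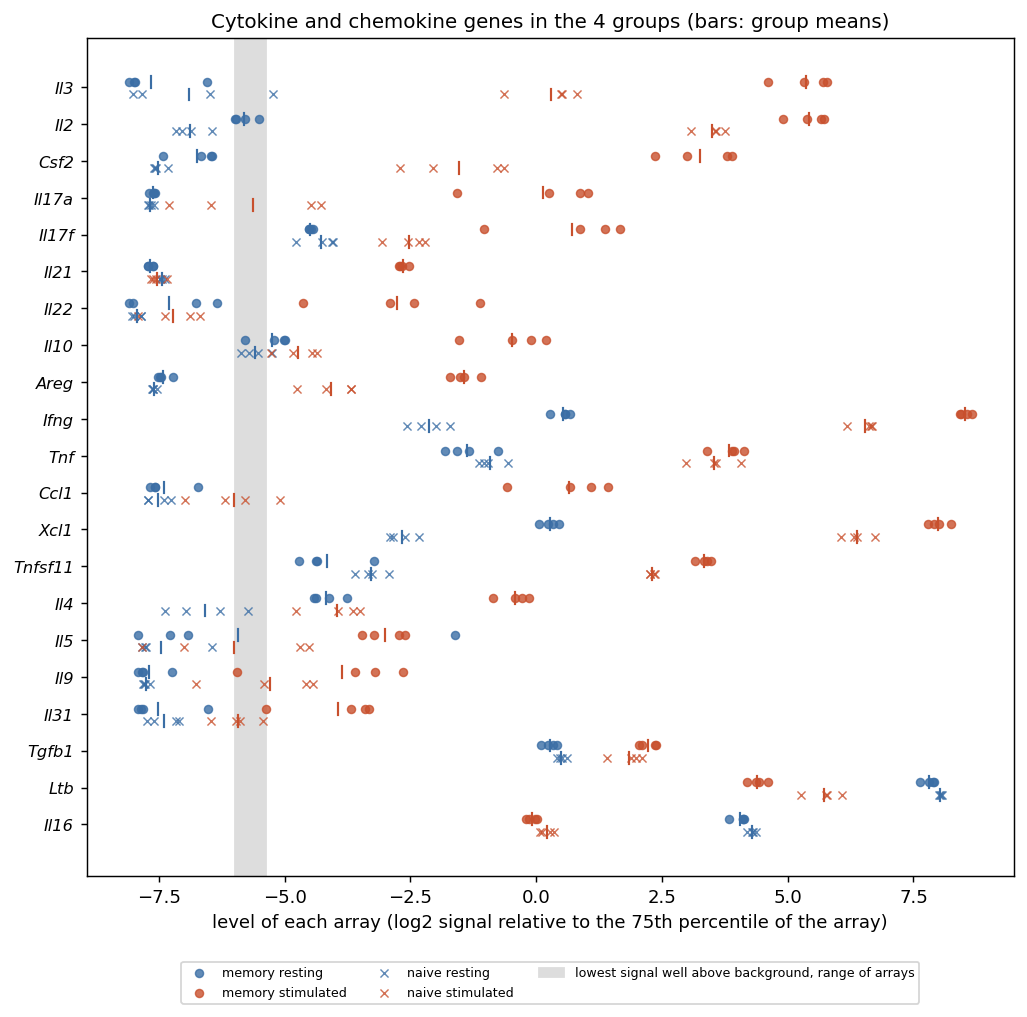
Levels of 21 cytokine and chemokine genes on each of the 16 arrays (log2 relative to the array's 75th percentile); circles are memory phenotype and crosses naive cells, blue is resting and red stimulated, bars are means of 4 arrays and the grey band spans the lowest signals well above background. The red circles lie right of the blue ones for all genes but Il5, where 1 resting array overlaps, and Ltb and Il16, which fell.

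The promoters of 2 cytokines are shown because NFAT is the factor that ionomycin activates and TGGAAA is the core it binds. In the 250 bases before the RefSeq start (GRCm38.p6) of Il2 (chr3:37125955-37126204, minus strand) and Csf2 (chr11:54249900-54250149, minus strand) the core was found once each, 47 and 201 bases before the start; capitals mark it, and in Il2 it reads on the other strand.
Il2: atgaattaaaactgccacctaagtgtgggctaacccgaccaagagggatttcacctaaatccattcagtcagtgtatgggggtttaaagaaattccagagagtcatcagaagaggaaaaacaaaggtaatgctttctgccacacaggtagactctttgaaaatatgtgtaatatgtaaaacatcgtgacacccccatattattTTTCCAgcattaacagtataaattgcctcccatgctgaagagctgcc
Csf2: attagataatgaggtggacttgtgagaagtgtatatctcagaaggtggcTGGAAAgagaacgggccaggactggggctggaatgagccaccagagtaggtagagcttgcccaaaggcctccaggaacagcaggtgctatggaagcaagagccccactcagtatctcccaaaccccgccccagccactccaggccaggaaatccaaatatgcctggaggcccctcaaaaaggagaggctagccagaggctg
The core was present in 13 of 22 interleukin and colony stimulating factor promoters (59.1%) and 7 of 17 of the interferon gamma, TNF family and chemokine list (41.2%), against 20.9% of all genes. The AP-1 site TGANTCA was present in 4 of 22 (18.2%) and 3 of 17 (17.6%), against 7.82% of all genes, on both strands. The windows of Il2 and Csf2 hold no AP-1 site. That of Ifng holds neither motif, that of Il3 the NFAT core alone and that of Il17a the AP-1 site alone.

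Cytokine receptor chains fell in 17 of 32 cases and rose in 9, with a median of -0.62 (-0.32 with normexp background correction). Il2ra, the high-affinity chain of the interleukin 2 receptor (chromosome 2, 11631963 to 11632024), read -3.26, -3.39, -3.18 and -2.38 on the resting arrays and 3.09, 3.01, 3.25 and 2.84 on the stimulated arrays. It rose by 6.1 ± 0.32, and all 4 of its probes rose. Il2rb, the signalling chain shared with interleukin 15, rose by 0.5 ± 0.21 (adjusted p = 0.0463), and it was lower, without passing, with quantile scaling. That call also ended when any of 10 single arrays was left out, among them memory resting replicates 2, 3 and 4 and memory stimulated replicates 2, 3 and 4 (0.37 to 0.53). The common gamma chain gene Il2rg did not pass (0.32 ± 0.21, adjusted p = 0.176). It passed as a rise with centring on the median (0.49) and with the replicate number as a block (0.32). The decoy receptor gene Il1r2 rose by 4.72 ± 0.29 and Il15ra, which presents interleukin 15, by 3.08 ± 0.25. Both interferon gamma receptor chains fell, Ifngr1 by 3.01 ± 0.3 and Ifngr2 by 3.59 ± 0.22, as did Tgfbr2 (-2.57 ± 0.11). Il12rb2, a chain of the interleukin 12 receptor, fell by 1.5 ± 0.3 and changed by 0.07 ± 0.3 in naive cells (difference -1.57 ± 0.43, adjusted p = 0.0171).

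Costimulatory and inhibitory receptors rose in 19 of 34 cases and fell in 9, with a median of 0.52. Slamf1 and Slamf7, receptors of the SLAM family, rose by 5.5 ± 0.15 and 4.75 ± 0.22, and Tnfrsf9, which encodes 4-1BB, by 5.29 ± 0.39. Receptors known from exhausted cells rose too, Havcr2 (TIM-3) by 4.17 ± 0.29, Lag3 by 3.76 ± 0.41 and Pdcd1 (PD-1) by 1.42 ± 0.19. Cd69, which retains cells in tissue by binding S1PR1, rose by 3.5 ± 0.16. Ctla4 did not pass (0.49 ± 0.25, adjusted p = 0.0977). It passed as a rise with centring on the median (0.66), with normexp background correction (0.44) and in a fit of the memory arrays alone. Nt5e, which encodes the ecto-nucleotidase CD73, fell by 3.81 ± 0.26 and Cd200r1 by 1.79 ± 0.48, with 1 of 4 stimulated arrays above background and no call under another background correction. Cd28 fell by 0.5 ± 0.19 (adjusted p = 0.0312), which no longer passed with centring on the median (-0.33) or without memory resting replicate 1 or 4 or memory stimulated replicate 1, 2 or 3 (-0.51 to -0.40).

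Lectin-like and other NK-type receptors rose in 3 of 21 cases and fell in 8, with a median of -0.37. Klri2 and Klrc3 rose by 2.16 ± 0.32 and 1.89 ± 0.35. Klrb1f, Klrb1c (which encodes NK1.1) and Klrb1a fell by 3.68 ± 0.33, 3.3 ± 0.31 and 2.76 ± 0.72. Klrd1, the CD94 chain that pairs with NKG2 receptors, fell by 2.62 ± 0.28, and Klrg1, a marker of differentiated effector cells, by 1.81 ± 0.52. Fcgr3, a marker of NK cells, fell by 3.41 ± 0.34, and the NK receptor gene Ncr1 was above background on 1 of 4 resting arrays. Several of these genes are near-identical copies in 1 cluster, so that a probe may read more than one of them.

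Receptors of trafficking fell in 22 of 39 cases and rose in 8, with a median of -0.72. Beside S1pr1, S1pr5 was not well above background on any stimulated array and was at least 11.6-fold lower. Cnr2, the cannabinoid receptor of leukocytes, fell by 6.6 ± 0.19. Ccr7, a receptor of homing to lymph nodes, fell by 2.18 ± 0.23, and Cxcr4 by 1.76 ± 0.19. Cd24a, a mucin-like adhesion protein, rose by 5.53 ± 0.26, and Itgav, the integrin alpha V chain, by 3.46 ± 0.16. Cxcr3, a receptor of homing to inflamed tissue, rose by 1.32 ± 0.23, against 4.16 ± 0.23 in naive cells (difference -2.85 ± 0.32, adjusted p = 2.24e-05).

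Granule effector genes and the exocytosis machinery rose in 11 of 25 cases and fell in 8, with a median of 0.12; in the authors' deposited values 10 rose and 10 fell (median 0.006). Gzmb, the protease that cleaves caspases in target cells (chromosome 14, 51126432 to 51126491), read 2.5, 1.11, 1.55 and 0.18 on the resting arrays and 6.69, 5.39, 5.72 and 3.9 on the stimulated arrays, a rise of 4.09 ± 0.6. Serpinb9, whose product protects the killer cell from its own granzyme B, and the serpin gene Serpinb6b rose by 3.62 ± 0.31 and 3.93 ± 0.2. Gzmc, above background on 2 of 4 resting arrays, rose by 3.55 ± 0.54. Gzmk, a granzyme of memory cells that was not above background on any naive array (chromosome 13, 110327790 to 110327849), read 0.36, 0.13, 0.03 and -0.75 on the resting arrays and -3.72, -3.47, -3.34 and -4.59 on the stimulated arrays. It fell by 3.72 ± 0.32 (adjusted p = 5.36e-08). Prf1, which encodes perforin, and Gzma did not pass, at 0.41 ± 0.47 (adjusted p = 0.443) and -0.75 ± 0.41 (adjusted p = 0.11). Gzma passed as a fall in 4 alternatives. These were the authors' deposited values (-0.97), normexp background correction (-0.74), the fit without memory resting replicate 4 (-1.10) and the replicate number as a block (-0.75). The lysosomal protease gene Ctsd fell by 3.18 ± 0.14.

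Transcription factors of T cell differentiation rose in 14 of 40 cases and fell in 20, with a median of -0.51. Myc, the factor of growth and biosynthesis (chromosome 15, 62064256 to 62064316), read 1.85, 1.47, 1.62 and 1.35 on the resting arrays and 7.49, 7.7, 7.56 and 7.62 on the stimulated arrays, a rise of 6.02 ± 0.11 shared by all 3 of its probes. Zeb2, a factor of terminal effector cells, rose by 5.22 ± 0.2, and Prdm1 (Blimp-1) and Id2, which favour effector fate, by 1.26 ± 0.29 and 1.19 ± 0.18. Tcf7, Lef1 and Id3, which favour long-lived memory, fell by 3.82 ± 0.11, 2.5 ± 0.12 and 1.37 ± 0.28. Ikzf2, which encodes Helios, and Zbtb7b, the factor of CD4 lineage choice, fell by 2.97 ± 0.14 and 2.53 ± 0.25. Tbx21, which encodes T-bet, the factor of type 1 cells (chromosome 11, 97207142 to 97207201), read 3.86, 3.66, 3.6 and 3.69 on the resting arrays and 3.81, 3.83, 4.12 and 3.91 on the stimulated arrays. These groups overlapped, and the change of 0.21 ± 0.2 did not pass (adjusted p = 0.339), while naive cells rose by 6.17 ± 0.2 from -0.35 ± 0.44 (difference -5.95 ± 0.28, adjusted p = 2.03e-09). Its partner Eomes did not pass (0.26 ± 0.22, adjusted p = 0.289).

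Quiescence and GIMAP genes fell in 26 of 36 cases and rose in 7, with a median of -1.15. Cdkn1b and Cdkn2d, which encode the cell cycle inhibitors p27 and p19, fell by 3.84 ± 0.13 and 3.64 ± 0.14. Foxo3 and Foxo1, the factors that PI3 kinase signalling keeps out of the nucleus, fell by 2.03 ± 0.18 and 0.55 ± 0.19; the call of Foxo1 ended with centring on the median, with another probe and without memory stimulated replicate 1. Gimap4, a GTPase of lymphocyte survival, fell by 2.73 ± 0.24, whereas Gimap5 rose by 0.96 ± 0.13, without a call in the authors' deposited values. Vsir, which encodes the inhibitory ligand VISTA, and Slfn2 rose by 2.52 ± 0.12 and 1.14 ± 0.15. Klf2, the factor that drives S1pr1, did not pass (-0.89 ± 0.64, adjusted p = 0.228), though its probe with the largest spread fell by 5.03 (adjusted p = 1.86e-12). It also passed as a fall in a fit of the memory arrays alone and with the replicate number as a block.

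Ribosome production was the list in which every member moved. All 45 tested ribosome biogenesis factors and RNA polymerase I subunits rose, with a median of 2.99 and a range of 1.03 to 4.71. Rrp1b, a nucleolar protein, read -0.77, -1.03, -0.85 and -1.57 on the resting arrays and 3.73, 3.74, 3.43 and 3.71 on the stimulated arrays, and Polr1b, the second largest subunit of RNA polymerase I, read -0.3, -0.0018, 0.11 and 0.21 on the resting arrays and 4.32, 4.33, 4.55 and 4.5 on the stimulated arrays. They rose by 4.71 ± 0.19 and 4.42 ± 0.13, Noc3l and Grwd1 by 4.36 ± 0.15 and 4.25 ± 0.14. The smallest rise was that of Npm1, an abundant nucleolar chaperone, at 1.03 ± 0.13. Aminoacyl-tRNA synthetases and initiation factors rose in 30 of 32 cases with a median of 2.15, led by Eif4ebp1, a repressor of cap-dependent initiation (3.4 ± 0.31), Eif1a (3.38 ± 0.18), and the synthetase genes Yars (3.11 ± 0.14) and Iars (3.09 ± 0.13). Eif4ebp2, its relative, did not pass (-0.99 ± 0.47, adjusted p = 0.0703) but passed as a fall in 6 alternatives, among them quantile scaling (-1.40), the authors' deposited values (-1.46) and the fit without memory resting replicate 4 (-1.41).

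The ribosomal proteins themselves changed little. The median over 51 tested was 0.23, with 21 up and 0 down, and the largest rise was that of Rpl35 (0.96 ± 0.25). This direction depended on the scaling: 1 rose and 15 fell with quantile scaling (median -0.12), 1 rose and 28 fell in the authors' deposited values (median -0.20), and 44 rose with centring on the median.

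Amino acid transport, one-carbon, nucleotide and polyamine genes rose in 43 of 51 cases and fell in 3, with a median of 2.16. Bcat1, a branched-chain aminotransferase, rose by 6.9 ± 0.2 and Shmt1, which feeds serine carbon into folate, by 6.32 ± 0.15. The transporter genes Slc1a4 and Slc7a5 rose by 5.82 ± 0.17 and 4.04 ± 0.28, the mitochondrial folate enzyme gene Mthfd2 by 4.94 ± 0.13 and the spermidine synthase gene Srm by 5.18 ± 0.17. Asns, the asparagine synthetase (chromosome 6, 7628080 to 7628139), read -0.69, -0.69, -0.56 and -0.18 on the resting arrays and 4.71, 5.03, 5.23 and 4.62 on the stimulated arrays, a rise of 5.43 ± 0.2. Slc6a19, a transporter of neutral amino acids, was not well above background on any stimulated array and at least 16.1-fold lower.

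Chaperone, heat shock and ATF4 stress genes rose in 35 of 43 cases and fell in 4, with a median of 1.55 (0.84 in the authors' deposited values). Beside Chac1 and Asns, Sesn2, a sestrin that senses leucine, rose by 3.62 ± 0.46, Hspa5, the chaperone of the endoplasmic reticulum, by 2.81 ± 0.15, Trib3 by 2.59 ± 0.54 and Atf4 itself by 2.38 ± 0.16. Ddit3, which encodes the stress factor CHOP, fell by 1.7 ± 0.22. Hspa1a, the inducible heat shock protein, fell by 2.07 ± 0.79 (adjusted p = 0.0294), a call that ended without memory resting replicate 1 or 3 or without memory stimulated replicate 2. The promoters of Asns and Chac1 are shown because both are known ATF4 targets. In the 250 bases before their RefSeq starts (GRCm38.p6; Asns chr6:7693210-7693459, minus strand, Chac1 chr2:119350992-119351241, plus strand) the letters TGATGNAA, in capitals, were found 23 and 193 bases before the start, in Chac1 on the other strand.
Asns: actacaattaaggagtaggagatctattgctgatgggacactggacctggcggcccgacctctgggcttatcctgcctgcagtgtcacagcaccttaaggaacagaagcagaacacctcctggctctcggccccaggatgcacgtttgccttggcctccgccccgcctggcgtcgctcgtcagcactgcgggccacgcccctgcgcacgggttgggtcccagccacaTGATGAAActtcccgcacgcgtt
Chac1: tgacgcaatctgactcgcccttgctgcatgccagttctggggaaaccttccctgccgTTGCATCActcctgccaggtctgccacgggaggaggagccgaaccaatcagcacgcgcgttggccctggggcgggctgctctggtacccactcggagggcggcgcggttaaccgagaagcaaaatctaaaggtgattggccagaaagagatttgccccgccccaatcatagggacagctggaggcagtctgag
These letters were in 4 of 35 promoters of the stress list (11.4%), 4 of 43 of the amino acid and nucleotide list (9.3%) and 3 of 23 of the synthetase and initiation factor list (13%), against 3.91% of all genes. The window of Sesn2 holds no match. The E-box CACGTG, which MYC binds, was in 3 of 40 ribosome biogenesis promoters (7.5%) and 7 of 43 of the amino acid and nucleotide list (16.3%), against 6.86%.

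Energy metabolism moved less evenly. Glucose uptake, glycolysis and pentose phosphate genes rose in 17 of 34 cases and fell in 9, with a median of 0.70. With quantile scaling 14 rose and 12 fell (median 0.215), and in the authors' deposited values 13 and 12 (0.153). Hk2, the inducible hexokinase (chromosome 6, 82750613 to 82750672), read 2.37, 1.23, 1.45 and 1.23 on the resting arrays and 5.94, 5.78, 6.03 and 5.86 on the stimulated arrays, a rise of 4.33 ± 0.28. Slc16a1, a lactate transporter, rose by 2.94 ± 0.13, Ldha, lactate dehydrogenase, by 0.86 ± 0.16, and the glucose transporter gene Slc2a1 by 0.7 ± 0.19; the last 2 calls ended with quantile scaling and in the authors' deposited values. Pdk1, which blocks entry of pyruvate into the citrate cycle, and Pfkm fell by 2.44 ± 0.35 and 2.11 ± 0.18. Gapdh did not pass (0.57 ± 0.25, adjusted p = 0.0549), though it passed as a rise in 9 alternatives. Respiratory chain and citrate cycle genes rose in 28 of 44 cases and fell in 6 at a median of 0.52, led by Cycs (2.33 ± 0.13), Uqcrq (2.14 ± 0.15) and Idh3a (2.07 ± 0.14), and against them Idh1 (-2.04 ± 0.35) and Idh2 (-1.63 ± 0.24) fell. That balance turned with quantile scaling, to 13 risen and 14 fallen (median -0.04), and to 12 and 17 in the authors' deposited values.

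Sterol and fatty acid genes went both ways. Of 45 tested 20 rose and 18 fell, with a median of 0.15 that turned to -0.13 with quantile scaling. Idi1 and Sqle, enzymes of cholesterol synthesis, rose by 4.42 ± 0.15 and 3.86 ± 0.12. Abcg1 and Abca1, which export cholesterol, fell by 3.98 ± 0.33 and 2.53 ± 0.22, and the desaturase gene Scd2 fell by 4.8 ± 0.22.

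Interferon-stimulated genes fell together. The median over 45 tested was -2.18, with 39 down and 0 up, while interferon gamma transcripts rose. In naive cells the median of the list was -1.43. The memory response was below the naive one for 13 of the 45 and above it for 0, where 14.1% of all genes were below and 5.9% above. Oasl2, an antiviral family member of the oligoadenylate synthetases, read 2.46, 1.04, 1.2 and 1.1 on the resting arrays and -0.83, -3.32, -3.46 and -2.69 on the stimulated arrays; resting replicate 1 was the highest. It fell by 4.02 ± 0.46, Ddx58, which encodes the RNA sensor RIG-I, by 3.97 ± 0.47, Rtp4 by 3.89 ± 0.46 and Oas2 by 3.99 ± 0.53, with 1 of 4 stimulated arrays above background. Isg15 changed by 0.0047 ± 0.39 and did not pass (adjusted p = 0.992), nor did Bst2 (0.34 ± 0.15, adjusted p = 0.0541). Bst2 passed as a rise in 8 alternatives (0.33 to 0.51). Among them were the fit without memory resting replicate 1 and the fit with the replicate number as a block. The interferon gamma inducible GTPase genes Irgm1, Irgm2 and Igtp fell by 1.92 ± 0.28, 2.39 ± 0.25 and 1.14 ± 0.25, and changed by 1.6 ± 0.28, 0.07 ± 0.25 and 1.12 ± 0.25 in naive cells. These responses differed by -3.52 ± 0.4, -2.46 ± 0.35 and -2.26 ± 0.35 (adjusted p = 1.99e-05, 0.000192 and 0.000375). The neutrophil, monocyte and B cell sums were lower on the same arrays, and their part in the fall of this list was not tested.

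The promoters of 2 genes of the list are shown because they hold the core of the interferon response element, which was searched as GAAA, any 2 bases and GAAA again, on both strands. In the 250 bases before the RefSeq start (GRCm38.p6) Ifit3 (chr19:34583279-34583528, plus strand) holds it 156 and 122 bases before the start and Ifit1 (chr19:34640639-34640888, plus strand) 104 and 85 bases before it, in capitals.
Ifit3: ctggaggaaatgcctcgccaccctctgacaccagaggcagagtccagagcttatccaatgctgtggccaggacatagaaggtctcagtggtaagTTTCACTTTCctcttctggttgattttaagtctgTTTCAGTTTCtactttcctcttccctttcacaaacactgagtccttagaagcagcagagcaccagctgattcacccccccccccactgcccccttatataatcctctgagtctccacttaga
Ifit1: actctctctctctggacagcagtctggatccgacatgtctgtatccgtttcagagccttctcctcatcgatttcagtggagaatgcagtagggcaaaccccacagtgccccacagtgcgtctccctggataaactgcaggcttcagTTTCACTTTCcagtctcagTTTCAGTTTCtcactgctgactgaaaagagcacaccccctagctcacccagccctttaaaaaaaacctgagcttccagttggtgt
It was in 14 of 33 promoters of the list (42.4%) and in 3.46% of all genes. Ifit3 and Ifit1, which bind viral RNA, fell by 3.34 ± 0.35 and 2.57 ± 0.53. The windows of Oasl2 and Ddx58, whose measured falls were larger, hold no match.

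Cyclins, CDK inhibitors, replication and mitosis genes rose in 13 of 50 cases and fell in 19, with a median of -0.25 (13 and 25, median -0.39, with quantile scaling). Ccnd2, the cyclin of early G1, rose by 3.48 ± 0.14 and Cdk4 by 2.02 ± 0.19, and Ccne2 and Pcna, of late G1 and S phase, by 1.43 ± 0.21 and 1.65 ± 0.15. Cdkn1a, which encodes the inhibitor p21, read -1.62, -2.47, -2.13 and -0.64 on the resting arrays and 1.21, 1.93, 2.06 and 2.08 on the stimulated arrays, a rise of 3.53 ± 0.37. Rbl2, the p130 pocket protein of resting cells, fell by 4.08 ± 0.094, and Mki67, a marker of cycling cells, by 1.32 ± 0.26.

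Cell death regulators rose in 16 of 37 cases and fell in 14, with a median of 0.14 that turned negative with quantile scaling (-0.18) and was -0.003 without memory resting replicate 4. Bcl2l1, which encodes the survival protein BCL-XL (chromosome 2, 152521752 to 152521811), read -1.88, -1.96, -2.02 and -1.57 on the resting arrays and 2.62, 2.51, 2.74 and 2.17 on the stimulated arrays, a rise of 4.37 ± 0.2. Bcl2 and Cflar, which also oppose death, rose by 1.77 ± 0.27 and 2.11 ± 0.15, and Mcl1 fell by 0.8 ± 0.13. The death-promoting BH3-only genes Bbc3 (PUMA) and Bmf fell by 3.98 ± 0.3 and 3.83 ± 0.2, and Casp9, the initiator caspase of the mitochondrial route, by 3.5 ± 0.14.

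Regulators of mRNA decay and RNA binding rose in 17 of 33 cases and fell in 10, with a median of 0.28; with quantile scaling 12 rose and 13 fell (median 0.055), and the counts were the same in the authors' deposited values (0.014). Zfp36l1, a protein that binds AU-rich elements, rose by 3.02 ± 0.14 and Pabpc4, a poly(A)-binding protein, by 1.85 ± 0.15. In the Regnase family Zc3h12c and Zc3h12a rose by 1.82 ± 0.27 and 1.39 ± 0.2 and Zc3h12d fell by 3.01 ± 0.27. Autophagy and lysosome genes rose in 11 of 39 cases and fell in 20, with a median of -0.44 (7 and 24, median -0.80, with quantile scaling). Lipa, a lysosomal hydrolase, fell by 2.5 ± 0.2, and Tfeb, the factor of lysosome genes, by 1.56 ± 0.27. Gabarapl1 rose by 2.29 ± 0.15 and the protease gene Ctsl by 1.6 ± 0.33.

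The memory response was last set against the naive one, by the difference of the 2 responses in the same fit. It was above 0 for 1085 genes (5.9%; 1903 with centring on the median and 1679 in the authors' deposited values) and below 0 for 2600 (14.1%; 1377 with normexp background correction). In all, 75 genes rose in memory and fell in naive cells, and 788 did the reverse. Those 788 lay low, at a median of -3.11 in resting and -4.15 in stimulated memory cells. When testing was limited to genes whose mean level reached 0, the difference was above 0 for 641 genes and below 0 for 385. The 2 responses share no array, but each of the 4 groups has its own slide.

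Rgcc, a regulator of the cell cycle (chromosome 14, 73969599 to 73969658), read 1.91, 1.59, 1.62 and 1.81 on the resting arrays and 5.48, 6.41, 6.57 and 5.99 on the stimulated arrays in memory cells. It read 4.99, 4.65, 4.58 and 4.3 on the naive resting arrays and 5.32, 6.41, 6.38 and 5.7 on the naive stimulated arrays, and its responses of 4.38 ± 0.26 and 1.32 ± 0.26 differed by 3.05 ± 0.37 (adjusted p = 4.34e-05). Fos, the AP-1 subunit, rose by 3.8 ± 0.19 in memory and 1.35 ± 0.19 in naive cells, and Mpzl2, an adhesion protein, by 3.93 ± 0.25 and 1.31 ± 0.25. Il17f rose by 5.21 ± 0.42 and 1.75 ± 0.42. Il18r1, a receptor chain that lets memory cells answer interleukin 18 without antigen, fell by 3.39 ± 0.24 in memory cells, from 3.3 ± 0.28, and changed by -6.04 ± 0.24 in naive cells, so that its difference above 0 is a smaller fall. The olfactory receptor gene Olfr1276 changed by 1.97 ± 0.21 and -0.82 ± 0.21, at a resting level of -5.3 ± 0.42. Il3, Ccl1, Il17a and Csf2 also differed, by 5.83 ± 0.77, 6.54 ± 0.59, 5.73 ± 0.86 and 4.04 ± 0.6, values that depend on resting signals below background.

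Differences below 0 were ranked among genes above background on at least 3 arrays of each group. The largest were of genes that fell in memory and rose in naive cells. Tbc1d19, a Rab regulator family gene (chromosome 5, 53276840 to 53276899), read -1.23, -0.74, -2.67 and 1.54 on the resting arrays and -5.49, -4.86, -4.81 and -4.44 on the stimulated arrays in memory cells and -3.61, -3.34, -3.47 and 0.42 on the naive resting arrays and -0.22, 1.82, 1.15 and 0.45 on the naive stimulated arrays. It changed by -4.12 ± 0.89 and 3.3 ± 0.89 (difference -7.42 ± 1.26, adjusted p = 0.000751). The probe NAP056427-1 (chromosome 2, 27540791 to 27540850), Plaat5, ENSMUST00000084870, AK042636 and Angptl7 did likewise, with changes of -3.52, -2.93, -3.26, -3.26 and -3.33 in memory and 4.28, 3.79, 3.41, 3.09 and 2.97 in naive cells; the fall of Plaat5 lost its call with normexp background correction (-1.07, adjusted p = 0.0816). For all 6, replicate 4 was the highest of the resting arrays in both fractions, above 0 or the nearest to it. The part of that array and of the slides in these differences was not tested.

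**Figure D5:**
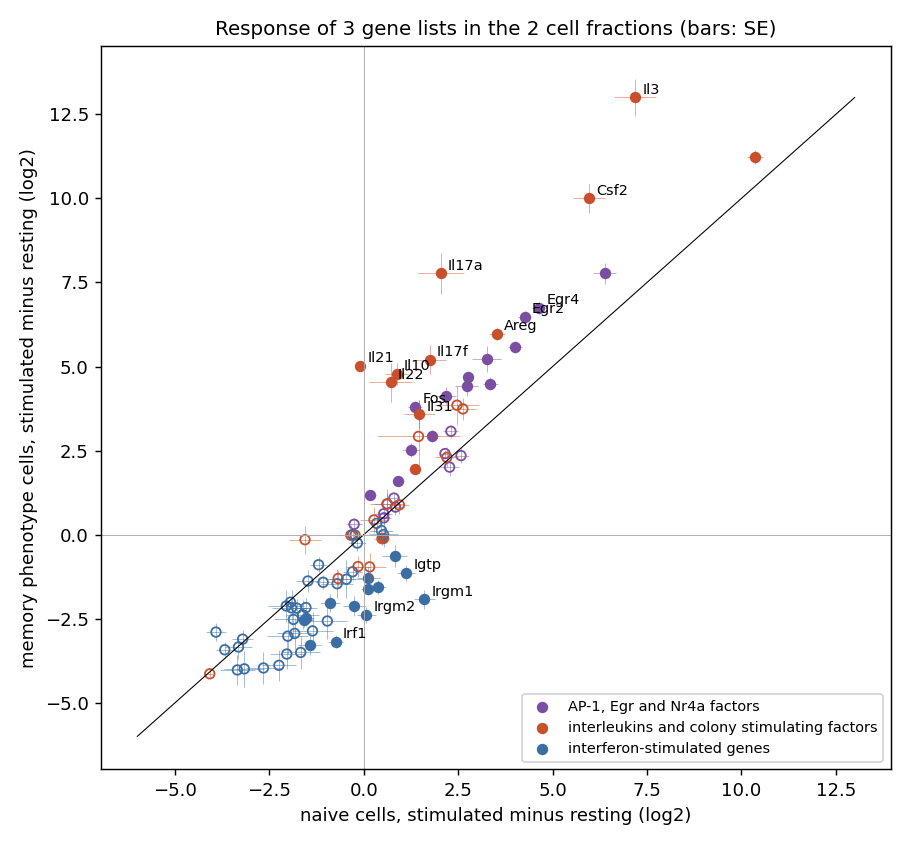
Stimulated minus resting (log2, with SE bars) in memory phenotype cells against naive cells for the tested members of 3 lists; filled points are genes whose 2 responses differed (adjusted p at most 0.05), open points did not pass, and the line marks equal responses. Il3, Csf2, Il17a and the Egr genes lie above the line, and Irgm1, Igtp and Irf1 below it.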

How the data were processed

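RNA of 16 samples was amplified from an oligo-dT primer, labelled with Cy3 and hybridised singly to whole mouse genome arrays of 60-base probes, per the labels' protocols, which ties a signal to sequence near the 3' end. Per the file headers, the authors extracted the scans with Agilent Feature Extraction 9.5.3.1, and the deposited processed intensity is background-subtracted, detrended and linear, not normalized between arrays. The series matrix holds the authors' own intensity values, of which the sources used here do not give the processing (median 149 on every array); they served as an alternative.

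Control and outlier spots were dropped, log2 was taken, the 75th percentile of each array was subtracted and spots of a probe were averaged. Probes well above background on at least 3 of 4 arrays of a group were tested (27349 of 41174). The tested probe with the highest mean stood for a gene; 6041 genes had several, and for 359 of these the probes were called in opposite directions. Symbols came from the reference table where the probe's accession (23075 probes), symbol (6582) or an older symbol (3077) matched, and 8440 probes kept the name in the files. Exon and UTR annotation was not used here.

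One mean per group was fitted over all 16 arrays with limma 3.58.1 (lmFit, eBayes; R 4.3.3) and tested on simulated data first; errors of changes are SE and those of levels SD (n = 4). The number of arrays limits the precision. "At least N-fold" sets the bright group's mean against the dim arrays, each taken at its lowest signal well above background unless the probe itself was brighter. Promoters are the 250 bases before RefSeq starts (GRCm38.p6). The genes, lists and tests were chosen with earlier results of these data known. Named are the 12 largest rises and falls measured in both groups, with all same-numbered differences of one sign, and the 8 largest bounds each way. Also named are the 4 largest changes of each list with 2 against its majority. The 6 largest differences from the naive response each way were taken among genes above background on at least 3 arrays of each group. The markers and the sort genes were named too, and others after their values were seen. Some genes that this rule names are not reported here. Alternatives covered scaling, background correction, the authors' values, the filter, the probe rule, the memory arrays alone, the replicate block and leaving out each array.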

Additional observations from a re-analysis of the deposited data

Results flagged for a closer look

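In 161 genes that were named from the largest changes, bounds, lists and differences, both memory groups were searched for an array set apart from the other 3 (Dixon's test for 4 values). Of 322 groups searched, 28 held such an array; chance gives about 1 in 20. Memory resting replicate 4 held 12 of them. On memory resting replicate 1, Tsc22d3 read 4.32 against 3.99 to 4.04, Txnip read 4.62 against 5.05 to 5.14 and Il16 read 3.84 against 4.11 to 4.13. There, too, Oasl2 read 2.46 against 1.04 to 1.2 and Ctsl read 1.76 against 2.31 to 2.37. On memory resting replicate 2, Cd24a read -1.46 against -1.09 to -1.02. On memory resting replicate 3, Chac1 read -4.7 against -3.97 to -3.92. On memory resting replicate 4, Ccl4 read 2.03 against 2.42 to 2.48, Il3 read -6.55 against -8.1 to -7.97 and Ccl1 read -6.72 against -7.68 to -7.57. There, too, Rasgrp2 read 3.12 against 2.92 to 2.94, S1pr5 read -3.04 against -1.69 to -1.53 and Vsir read 1.94 against 2.17 to 2.19. On that array Rpl35 read 7.21 against 6.81 to 6.84, Shmt1 read -2.27 against -2.7 to -2.63 and Cycs read 4.53 against 4.17 to 4.22. On that array Uqcrq read 4.46 against 4.17 to 4.19, Idh3a read 2.85 against 2.58 to 2.62 and Pabpc4 read 4.19 against 3.66 to 3.73. On memory stimulated replicate 1, Egr2 read 7.1 against 7.69 to 7.76, Slfn2 read 5.95 against 5.54 to 5.6 and Noc3l read 3.5 against 3.81 to 3.85. There, too, Cdkn1a read 1.21 against 1.93 to 2.08, Sesn2 read 5.08 against 6.35 to 6.54 and Ctsl read 2.85 against 4.05 to 4.17. On memory stimulated replicate 3, Rrp1b read 3.43 against 3.71 to 3.74. On memory stimulated replicate 4, Pik3ip1 read -1.45 against -1.94 to -1.9 and Gab3 read -1.55 against -2.06 to -2.0.

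The response of memory phenotype cells differed from that of naive cells by at least 2 log2 units, with limma's test of the difference itself, in 16 of the genes with the largest changes, bounds or differences. Memory minus naive response was above 0 for Ccl1 (6.54), Il3 (5.83), Il17a (5.73), Csf2 (4.04), Il17f (3.46), Rgcc (3.05), Olfr1276 (2.78), Il18r1 (2.66), Mpzl2 (2.62) and Fos (2.44). It was below 0 for NAP056427-1 (-7.8), Tbc1d19 (-7.42), Plaat5 (-6.72), ENSMUST00000084870 (-6.67), AK042636 (-6.35) and Angptl7 (-6.3).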

How the results depend on the processing

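Of 325 named genes, 6 values turned their direction where either setting called them: Rpl15 (-0.0938 with quantile scaling and -0.0958 in the authors' values), Rpl28 (-0.0229 in the authors' values), Il2rb (-0.17 and -0.28) and Jund (-0.44 in the authors' values). The count of genes whose memory response was above the naive one was 1903 with centring on the median of tested probes, 1679 in the authors' values and 1767 with the replicate number as a block, against 1085. With normexp background correction 2250 genes fell at least 2-fold and 1377 responses lay below the naive one; the fit was replaced by the median of other arrays on 3 arrays, 2 of them memory stimulated. When testing was limited to genes whose mean level reached 0, an alternative chosen after seeing the data that tests fewer genes, 3742 rose and 2340 fell (61.5% of calls rose, against 44.5%), 2106 and 1220 by at least 2-fold, and the responses differed above 0 in 641 and below in 385. Elsewhere the cause was not tested.

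Over all alternatives 8055 of 8236 values of the named genes kept direction and call, 81 lost and 94 gained a call, in 49 genes in all. Leaving out each of the 16 arrays in turn gave 5448 to 5889 risen and 6820 to 7389 fallen genes, 3384 to 3567 and 4347 to 4604 by at least 2-fold, and 748 to 1334 and 2168 to 3046 differences above and below 0. Replicate numbers were not shown to pair the samples: correlations of same-numbered resting and stimulated memory arrays were 0.345, 0.155, -0.086 and 0, and 2 of 4 arrays correlated best with their own number. For naive and memory resting arrays they were 0.303 to 0.585, and over all pairs of groups 15 of 24 arrays correlated best with their own number, a hint from the data. The replicate number is also the array's position on its slide, so that pairing and position cannot be told apart. With the replicate block 5739 of the risen and 7132 of the fallen genes kept their call, and of the named genes 1 lost and 11 gained one. The slide as a block was not run, since each slide holds 1 group. Genes near background are limited by their signal.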
